A study of Mus musculus with 14 samples.

Results

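Replication-dependent histone genes encode the bulk of the core histones H2A, H2B, H3 and H4 and of the linker histone H1 that package newly copied DNA. Genes were taken as members where their Ensembl identifier carries a GENCODE M21 symbol of the form Hist1h, Hist2h, Hist3h or Hist4h and where they had at least 15 counts summed over the 14 libraries, so they were chosen by name and by their summed counts. The name pattern matched 70 identifiers, and 67 of the 55416 identifiers in the count table met both conditions. The 3 left out were Hist1h2aa with 3 counts, and Hist2h2aa1 and Hist2h3c1 with 0 counts each, and the members nearest to the minimum were Hist1h1t with 26 counts and Hist1h4m with 46. The summed counts are the same counts that are described here, so levels across the cell lines are given as a description, without a test. The 67 comprised 6 genes for H1, 18 for H2A, 19 for H2B, 11 for H3 and 13 for H4, with 55 on chromosome 13, 8 on chromosome 3, 3 on chromosome 11 and 1 on chromosome 6. The annotation gave 64 as protein coding and 3 as pseudogenes, namely Hist1h2aj, Hist1h2al and Hist3h2bb-ps.

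The mRNAs of this family are the known exception to polyadenylation in animal cells. Their 3′ end is a conserved stem-loop, bound by the protein SLBP, and cleavage just behind it is guided by the U7 small nuclear ribonucleoprotein rather than followed by addition of a poly(A) tail. The mRNAs accumulate while DNA is being copied and are degraded when replication ends, whereas replication-independent variants such as H2afz and H3f3a are made from ordinary polyadenylated mRNAs. METTL3 is the catalytic subunit of the enzyme that deposits N6-methyladenosine on mRNA, and STM2457 is a small-molecule inhibitor of it.

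RNA was sequenced from mouse stem cell lines of 3 kinds in 6 groups. Extraembryonic endoderm stem cells (XEN), which represent the primitive endoderm lineage, gave 3 libraries with STM2457 and 3 with DMSO, trophoblast stem cells (TSC) gave 2 and 2, and epiblast stem cells (EpiSC) gave 2 and 2. STM2457 was given at 50 µM for 12 h. All lines were hybrids of Mus molossinus and Mus musculus; XEN and TSC were labelled WT and EpiSC carried the genotype XmolXmus-ΔTsix, so that EpiSC differ from the other lines in genotype as well as in cell type. The media also differed: XEN grew in DMEM with FBS, TSC in MEF-conditioned RPMI with FBS and Fgf4, and EpiSC in knock-out DMEM with serum replacement, Fgf2 and Activin A. Each kind was 1 cell line, and the labels do not say whether replicates came from separate cultures, so p-values measure the spread between these libraries. Library totals were 6826496 to 10024628 counts in XEN, 17909934 to 20354242 in TSC and 18640099 to 21097380 in EpiSC. In the DMSO libraries 8 of 8 XEN markers had their highest mean in XEN, 7 of 7 TSC markers in TSC and 6 of 7 EpiSC markers in EpiSC, with Sox2 at 80.3 CPM in EpiSC, against 277 CPM in TSC, and Dnmt3b at 222 CPM in EpiSC, against 213 CPM in TSC. Gata4, of primitive endoderm, averaged 616 ± 42.3 CPM in XEN (SD, n = 3), Cdx2, of trophoblast, 72.0 ± 3.55 CPM in TSC (SD, n = 2), and Pou5f1, of the epiblast, 728 ± 19.5 CPM in EpiSC (SD, n = 2). CPM values here use library sizes after TMM scaling.

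A stem-loop was found behind the stop codon in the annotated transcripts of 42 members. The search asked for 16 bases that open with GG and close with CC, hold TTT as the first bases of the loop, and have 6-base arms that pair with each other. The 6 forms found are shown because they carry the feature that sets these mRNAs apart; the 4 loop bases are in capitals, and the count of members follows in the sentences after them.

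common form: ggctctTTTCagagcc
A-loop form: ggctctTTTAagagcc
U-loop form: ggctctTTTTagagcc
H4 form: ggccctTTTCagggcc
H4 form with U in the loop: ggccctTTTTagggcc
second H4 form: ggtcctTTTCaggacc

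The common form occurred in 24 members of classes H1, H2A, H2B and H3, and the A-loop form in 6. The U-loop form occurred in 1 H2A gene, Hist2h2ac. The 3 forms with another stem occurred in 7, 2 and 2 members, all of class H4. In the remaining 25 members no stem-loop was found. Of these, 19 are pseudogenes or are annotated to end within 60 bases of the stop codon. That leaves 6 with a longer annotated end, Hist1h2bc, Hist2h2be, Hist1h4a, Hist1h2bq, Hist1h2br and Hist1h3g. The stem-loops found began 21 to 58 bases behind the stop codon, so an end within 60 bases can still have room for one. Among 21884 other protein-coding genes, 129 (0.589%) held the paired pattern somewhere in a transcript and 2 (0.00914%) held the common form exactly. For members that the results below turn on, 26 bases around the stem-loop read as follows.

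Hist1h4c: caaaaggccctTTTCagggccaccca
Hist1h4h: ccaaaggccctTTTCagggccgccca
Hist1h4i: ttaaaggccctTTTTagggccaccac
Hist1h1c: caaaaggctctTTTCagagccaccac
Hist1h1e: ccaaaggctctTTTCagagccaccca
Hist1h3a: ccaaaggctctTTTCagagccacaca
Hist2h2ac: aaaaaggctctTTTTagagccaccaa
Hist3h2ba: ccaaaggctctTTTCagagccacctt
H2afx: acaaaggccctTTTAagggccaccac

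H2afx, the gene of the variant H2A.X that is phosphorylated at DNA breaks, is no member and is shown because it was the only 1 of 11 replication-independent variant genes with such a stem-loop; it is known to be made both with and without a poly(A) tail. All sequences were read from the GENCODE M21 transcripts, which are built on GRCm38. Family members resemble each other closely: 18 of the 67 had under 25% of their 50-base words not found in any other gene of the family and 19 had over 75%. Counts of the 18, with Hist2h2aa2 at 0.0% unique, are uncertain, since no source used here states how reads matching several genes were handled.

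Histone mRNA took a very different share of the counts in the lines. The 67 genes took 0.618%, 0.521% and 0.643% of the counts in the XEN STM2457 libraries and 0.654%, 0.436% and 0.553% in the XEN DMSO libraries. In TSC they took 0.00320% and 0.00333% with STM2457 and 0.00298% and 0.00314% with DMSO. In EpiSC they took 0.00523% and 0.00526% with STM2457 and 0.00573% and 0.00629% with DMSO. No XEN library came near any TSC or EpiSC library, and in DMSO the summed level was 6186 ± 1292 CPM in XEN (SD, n = 3), against 28.7 ± 1.29 CPM in TSC and 55.2 ± 2.97 CPM in EpiSC (SD, n = 2 each). The log2 ratio of these sums was 7.75 for XEN over TSC and 6.81 for XEN over EpiSC. In bulk RNA, fewer cells in S phase, less histone RNA per cell and a lower yield of RNA without poly(A) tails in the libraries cannot be told apart. None of these was tested, and other RNA of that kind is given below.

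**Figure D1:**
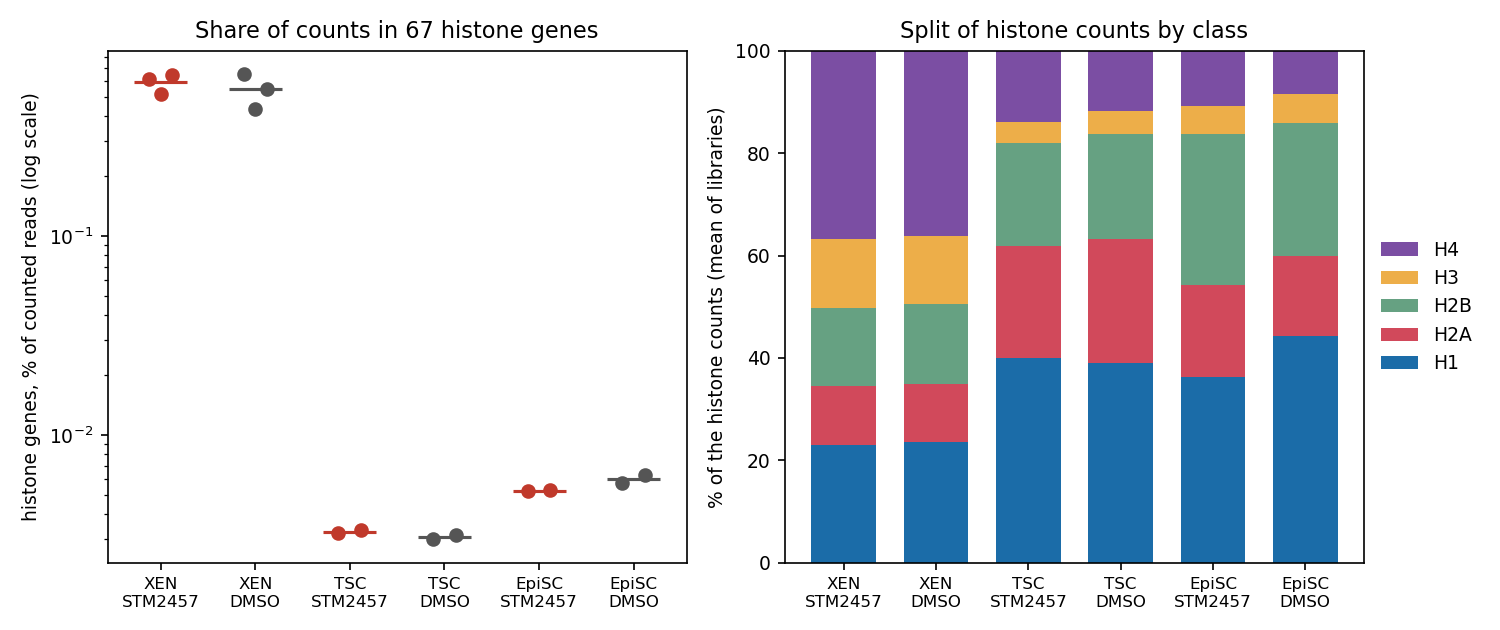
Left, share of each library's counts in the 67 histone genes, on a log axis, with points for libraries (STM2457 red, DMSO grey) and lines for group means; the XEN libraries lie between 0.436% and 0.654% and all others between 0.00298% and 0.00629%. Right, mean percentage of the histone counts that fell in each class, with H4 largest in XEN and H1 largest in TSC and EpiSC.

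The contrast held for nearly every member. All 67 were higher in each XEN DMSO library than in each TSC DMSO library, where 38.2% of all 18430 tested genes were higher in this way, and 65 were higher in each XEN than in each EpiSC DMSO library, where 37.4% of tested genes were. The rule that chose the members used these counts, so nothing is read from the numbers beyond the description. The ratio of the mean CPM in XEN DMSO to that over the TSC and EpiSC DMSO libraries was above 100 for 42 members and below 10 for 4, with a median of 184.6, in which 3 members with no count in those TSC and EpiSC libraries stand at a lower bound set by 3 counts over the 4 of them. By class the median ratio was 1141 for H4, 260 for H3, 168 for H2A, 149 for H1 and 101 for H2B, the H1 and H4 medians standing on 6 and 13 genes.

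**Figure D2:**
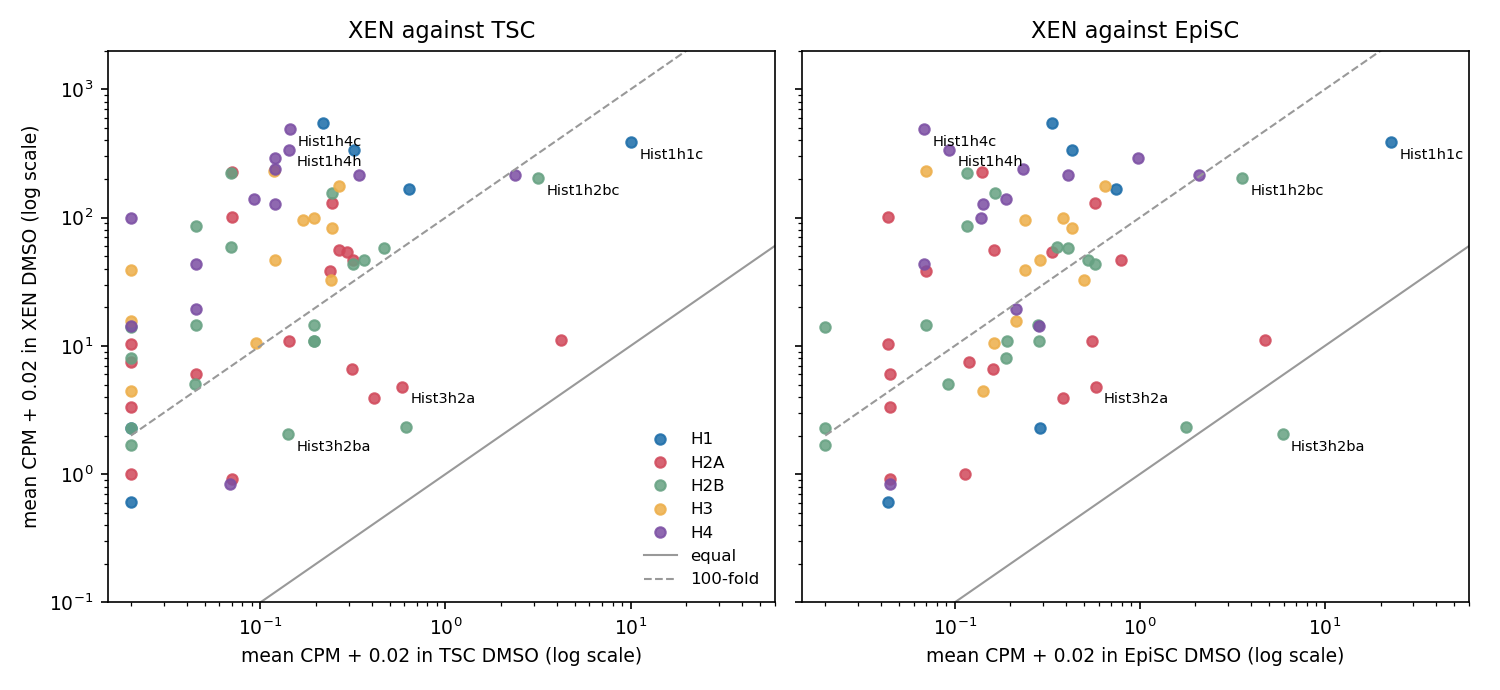
Mean CPM of each of the 67 members in XEN DMSO libraries (n = 3) against its mean in TSC DMSO (left) and EpiSC DMSO (right; n = 2 each), on log axes after adding 0.02, coloured by class. Most members lie above the dashed line of a 100-fold excess in XEN, and Hist3h2ba lies below the line of equal levels against EpiSC.

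The genes that filled the XEN signal were mainly H4 and H1 genes. H4 genes held 36.2% ± 0.913 of the histone counts in XEN DMSO libraries and H1 genes 23.5% ± 1.52 (SD, n = 3), while H4 held 11.8% ± 0.622 in TSC and 8.53% ± 0.158 in EpiSC, and H1 held 38.9% ± 0.635 in TSC and 44.4% ± 1.04 in EpiSC (SD, n = 2 each). Per kilobase of annotated exon, the highest levels in XEN DMSO were those of Hist1h4h at 722 ± 80.0, Hist1h4c at 597 ± 155, Hist1h4a at 546 ± 68.1 and Hist1h1a at 457 ± 122 CPM per kb (SD, n = 3). Hist1h2bb, Hist2h2ac, Hist1h3b, Hist1h4b, Hist1h2bj and Hist1h4i followed at 297 to 439 CPM per kb. The SDs of neighbours in this order overlap, so the order within the 10 is not resolved. The lowest level was that of Hist1h1t, the testis-specific linker histone, at 0.644 ± 0.0952 CPM per kb.

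Hist1h4c, an H4 gene with the stem-loop printed above, showed the widest contrast. It had 5473, 3446 and 4745 counts in XEN with STM2457 and 3896, 2204 and 4103 in XEN with DMSO. It had 4 and 0 counts in TSC with STM2457 and 2 and 3 with DMSO, and 2 and 4 counts in EpiSC with STM2457 and 1 and 1 with DMSO. Its XEN level in DMSO was 5723 times that over the TSC and EpiSC DMSO libraries, with a 95% counting interval of 2777 to 14234. Hist1h4h, encoding the same H4 protein from another locus, had a ratio of 3471, and Hist1h1e, the member with the most counts and a linker histone gene that overlaps Hist1h2be, of 2125.

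At the other end stood Hist3h2ba, an H2B gene on chromosome 11. It averaged 2.03 ± 1.37 CPM in XEN DMSO (SD, n = 3), against 0.121 ± 0.171 CPM in TSC DMSO and 5.89 ± 0.742 CPM in EpiSC DMSO (SD, n = 2 each). It was the only member lower in all XEN than in all EpiSC DMSO libraries, as 40.9% of tested genes were. Its annotated sequence holds the common stem-loop and also the hexamer AATAAA, the usual polyadenylation signal. The other members with a ratio below 10 were Hist2h2be at 1.96, Hist1h2af at 2.48 and Hist3h2a at 8.55. Hist1h2af and Hist3h2a each overlap a gene annotated on the opposite strand, and Hist3h2a also overlaps Trim17 on its own strand, so their counts can hold reads of those genes.

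What little histone RNA was counted in TSC and EpiSC came from few genes. The 5 genes with most histone counts in a library made up 32.1% to 35.2% of the histone counts in XEN, against 68.2% to 73.6% in the other lines. Hist1h1c alone, the gene of the linker histone H1.2, made up 5.79% to 6.92% of them in XEN, against 29.3% to 41.9% in TSC and EpiSC. The 10 members with the highest mean level over the TSC and EpiSC DMSO libraries were Hist1h1c, Hist1h2af, Hist1h2bc, Hist3h2ba, Hist1h4i, Hist2h2be, Hist1h1d, Hist3h2a, Hist1h2al and Hist1h4a. Of these 10, 7 have the hexamer AATAAA, the usual polyadenylation signal, in annotated sequence behind the stem-loop or, where none was found, behind the stop codon; of the other 57 members, 11 have it. The 18 members with AATAAA had a median ratio of XEN over the other lines of 61.5, and the 49 without it 271. A match is no evidence that the signal is used, and a missing match can come from a short annotated end. A stem-loop was found in 5 of the 10. With so few histone counts, 9 members had 0 counts in all 4 TSC libraries and 5 had at least 10 counts in each. In EpiSC, 1 member had 0 counts in all 4 libraries and 11 had at least 10 in each.

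Other RNA known to lack a poly(A) tail, or to end otherwise, was set beside the family. Of 32 such genes listed, 17 passed the filter on low counts, and all of these but Snora73b, Malat1 and Neat1 had at most 28 counts in any TSC or EpiSC library, so that most passed through XEN alone and had to be higher there; no count or median over the list is therefore given. The small cytoplasmic RNA Rny3 averaged 254 CPM in XEN DMSO libraries, against 0.0485 CPM in TSC and 0.0745 CPM in EpiSC. Rny3 is one of those that passed through XEN alone, so its values are a description only. Malat1, a nuclear RNA whose end is a triple helix, averaged 13397 CPM in XEN, 340 CPM in TSC and 343 CPM in EpiSC; it was counted in every library. Mitochondrial rRNA took 12.0% to 16.01% of the counts in XEN libraries and 0.0366% to 0.0505% in TSC and EpiSC libraries. The labels name the TruSeq stranded total RNA kit for all 14 libraries; no source used here states whether all libraries were depleted of rRNA in the same way, and the part of such differences in the histone values was not tested.

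As a set, the replication-independent histone variants did not share the contrast, though H2afx, the variant with a stem-loop, was higher in XEN than in TSC and EpiSC. H3f3b, a gene of the replacement histone H3.3, averaged 605 CPM in XEN DMSO, 926 CPM in TSC and 847 CPM in EpiSC, and H2afz, of H2A.Z, averaged 267, 319 and 742 CPM in the same order. Over the 11 variant genes the median fitted log2 ratio in DMSO was -0.62 for XEN over TSC and -0.49 for XEN over EpiSC, signs that turned to 0.44 and 0.28 when libraries were scaled to ribosomal protein genes. Under it the median tested gene stood at 1.03 and 0.75, so the variants stayed below the median gene. H2afx was the variant with the largest excess over TSC, at 376 ± 111 CPM in XEN (SD, n = 3), against 26.8 ± 0.225 CPM in TSC and 145 ± 1.07 CPM in EpiSC (SD, n = 2 each). The 28 genes of DNA replication and S phase had medians of -0.70 over TSC and -0.53 over EpiSC, which became 0.37 and 0.24 under the ribosomal scaling, again below the median gene.

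EpiSC and TSC, both with little histone signal, could be compared by a test, because the count minimum favours neither. In DMSO, 13 members were higher in EpiSC than in TSC and 0 were lower by edgeR's quasi-likelihood test at an adjusted p under 0.05, beside 27.4% of all tested genes higher and 27.0% lower. Without 1 of the 4 libraries the count was 6 to 8. It was 6 without TSC DMSO replicate 1, TSC DMSO replicate 2 or EpiSC DMSO replicate 2, and 8 without EpiSC DMSO replicate 1. Hist3h2ba, Hist1h1c, Hist1h4a and Hist1h3g were called in all 4 of those fits, and the other 9 were lost in at least 1.

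Hist1h1c rested on the most counts. It had 448 and 492 counts in the EpiSC DMSO libraries, against 211 and 197 in the TSC DMSO libraries, a log2 fold change of 1.18 ± 0.19 (SE; edgeR adjusted p = 4.59e-05). Hist3h2ba had 108 and 136 counts in EpiSC, against 5 and 0 in TSC, with a log2 fold change of 5.49 ± 0.66 (SE; edgeR adjusted p = 2.37e-06) that ranged from 4.55 to 9.46 when a library was left out. The lines did not overlap for either gene. Hist1h4a had 14 and 26 counts in EpiSC, against 1 and 3 in TSC, and Hist2h2be, an H2B gene on chromosome 3, had 28 and 45, against 16 and 8. Hist1h2al, a pseudogene with a gene annotated on the opposite strand, Hist1h3e and Hist1h2ae had 10 to 16 counts in each EpiSC library and 2 to 7 in each TSC library. The remaining 6 called members had at most 10 counts in any of these libraries. Of them Hist1h1b, Hist1h4k, Hist1h3g and Hist3h2bb-ps had 0 counts in both TSC libraries. Against a floor of 3 counts over both TSC libraries they stood 3.60-fold, 3.60-fold, 2.94-fold and 2.29-fold higher in EpiSC. The counting error of their 7 to 11 counts over both EpiSC libraries is not included, so these are not strict lower bounds.

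**Figure D3:**
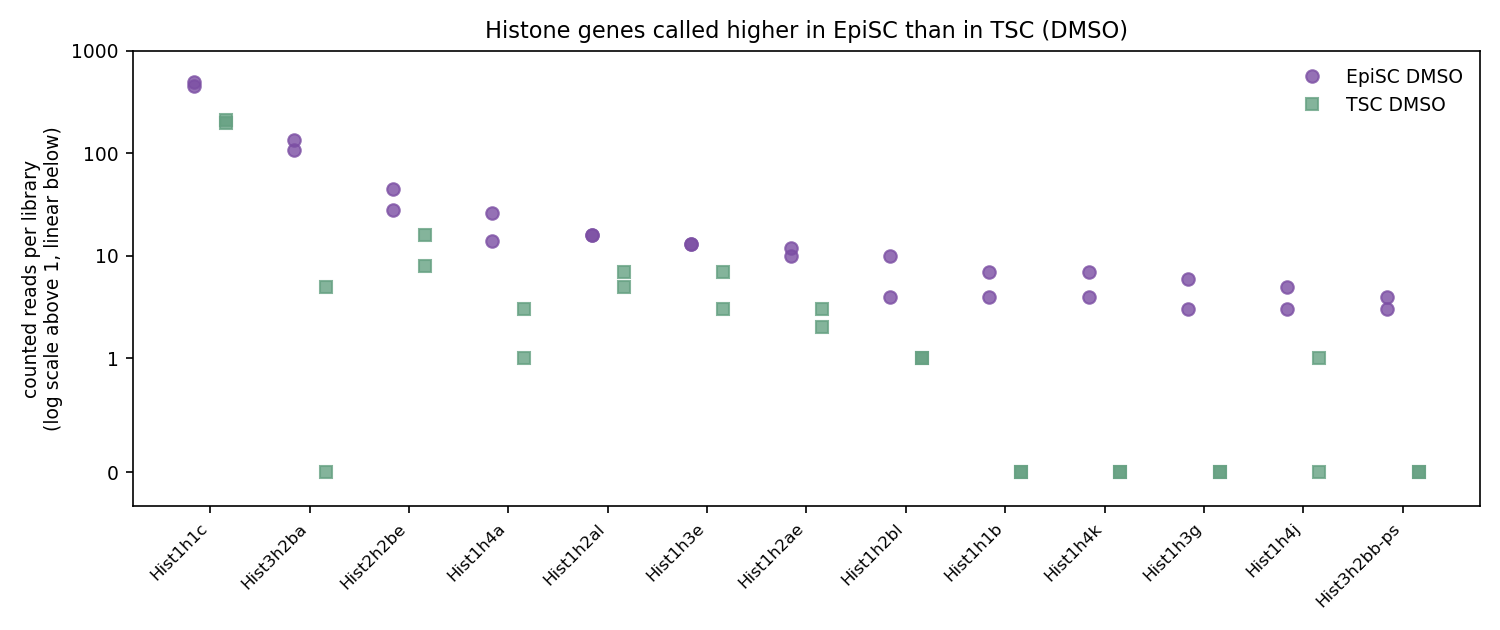
Counts in each DMSO library of the 13 members called higher in EpiSC (circles) than in TSC (squares), on an axis that is logarithmic above 1 and linear below. Hist1h1c and Hist3h2ba stand on over 100 counts in every EpiSC library, and 9 of the 13 members have 5 or fewer counts over both TSC libraries.

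The treatment was the labelled contrast of the study. In XEN, where the family was deeply counted, 0 of 67 members passed edgeR's quasi-likelihood test at an adjusted p under 0.05, beside 4.15% of all tested genes, and 0 had an unadjusted p under 0.05. DESeq2 also called 0, beside 8.62% of tested genes. All STM2457 libraries lay above all DMSO libraries for 2 members and below them for 2, beside 8.36% and 7.03% of tested genes. The summed level was 6670 ± 981 CPM with STM2457 and 6186 ± 1292 CPM with DMSO in XEN (SD, n = 3 each), a difference smaller than either SD. The median log2 fold change of the members was 0.08, with 46 positive, beside 0.00 over all tested genes, and it ranged from -0.05 to 0.25 when a XEN library was left out. By class the medians were 0.04 for H1, 0.14 for H2A, 0.01 for H2B, 0.07 for H3 and 0.18 for H4.

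**Figure D4:**
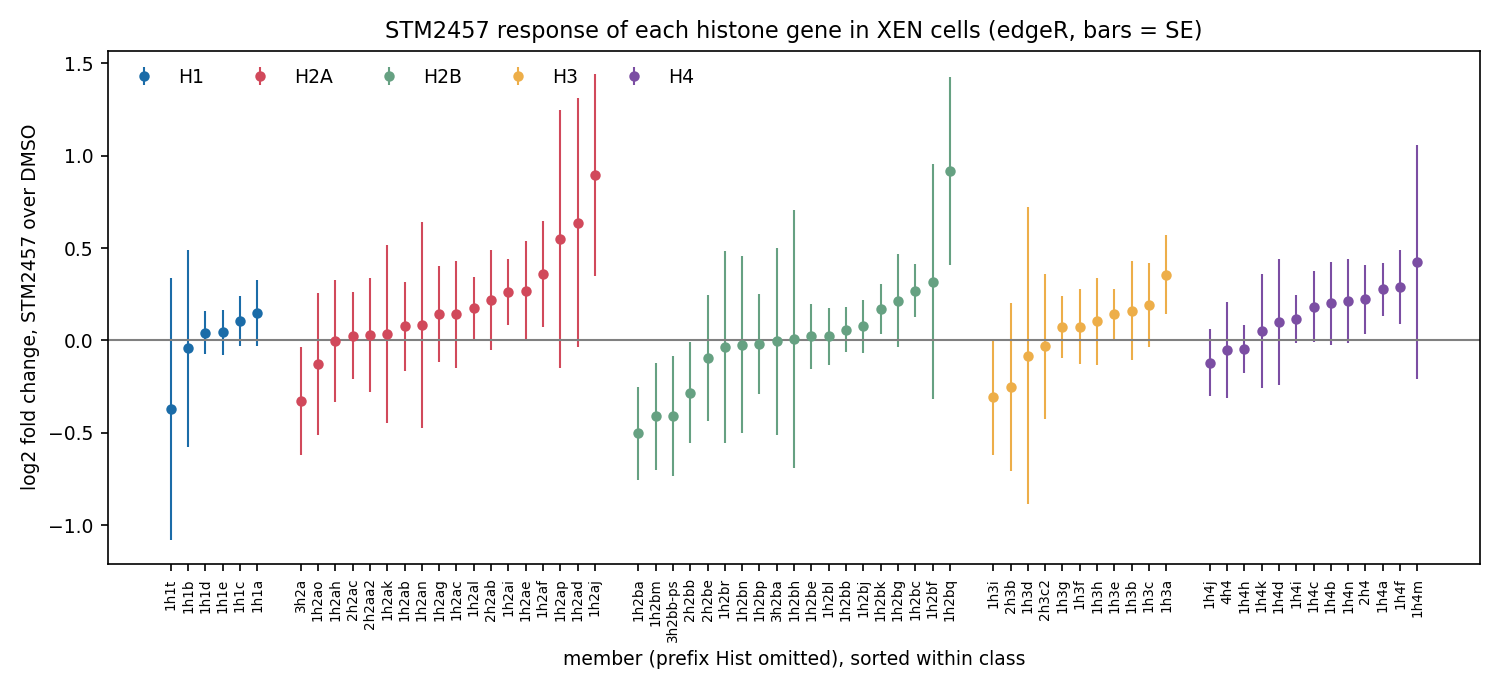
Log2 fold change of STM2457 over DMSO in XEN cells for the 67 members, sorted within each class (n = 3 libraries per arm); bars are SE from edgeR. Values run from -0.50 for Hist1h2ba to 0.92 for Hist1h2bq, and none passed the adjusted test.

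The abundant members had narrow errors and small changes. The 10 with the highest level per kb in XEN DMSO had log2 fold changes between -0.04 and 0.28 with SEs of 0.12 to 0.27. Hist1h4h had 339, 299 and 348 CPM with STM2457 and 373, 299 and 346 CPM with DMSO, and Hist1h4c had 607, 440 and 618 CPM with STM2457 and 610, 357 and 500 CPM with DMSO. The arms overlapped for both genes. The largest positive values in H2A and H2B were those of Hist1h2aj at 0.89 ± 0.55 and Hist1h2bq at 0.92 ± 0.51 (log2, SE), both with at most 50 counts per library and under 25% unique words. The largest negative value was that of Hist1h2ba, the testis-specific H2B, which had 97, 76 and 68 counts with STM2457 and 121, 70 and 94 with DMSO, a log2 fold change of -0.50 ± 0.25 (SE; edgeR adjusted p = 0.334). In the other classes the extremes were Hist1h1a at 0.15 and Hist1h1t at -0.37, Hist3h2a at -0.33 in H2A, Hist1h3a at 0.36 and Hist1h3i at -0.31, and Hist1h4m at 0.42 and Hist1h4j at -0.12, none past the test.

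XEN libraries with the same replicate number deviated together, so the same comparison was also made within numbers. With the replicate number as a block, 3 members rose and 0 fell, beside 7.95% of tested genes that rose and 13.3% called in either direction. In XEN fitted alone with the block, Hist1h3a was the only call, beside 11.4% of the genes tested there. Hist1h3a, an H3 gene, had 119, 102 and 144 CPM with STM2457 and 116, 74.5 and 94.2 CPM with DMSO, a blocked log2 fold change of 0.36 (edgeR adjusted p = 0.0102). Hist1h4a had 343, 343 and 383 CPM with STM2457 and 332, 259 and 292 CPM with DMSO, a blocked log2 fold change of 0.28 (edgeR adjusted p = 0.0130). Hist1h2bc, an H2B gene with AATAAA behind its stop codon and no stem-loop found, had 255, 208 and 273 CPM with STM2457 and 252, 157 and 201 CPM with DMSO, a blocked log2 fold change of 0.29 (edgeR adjusted p = 0.0168). In these genes the STM2457 library was higher in each of the 3 pairs. The pairs themselves differed: the median log2 ratio over members was -0.18 in pair 1, 0.20 in pair 2 and 0.26 in pair 3, with 16, 48 and 56 members higher with STM2457. Over all 3 pairs, 10 members were always higher and 5 always lower, beside 19.2% and 19.4% of all tested genes.

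Some members also varied between XEN replicate numbers more than between arms. Hist1h3d had 73, 12 and 161 counts with STM2457 and 73, 11 and 151 with DMSO in replicates 1, 2 and 3. Hist1h2bf had 154, 53 and 246 counts with STM2457 and 84, 23 and 221 with DMSO, and Hist1h2ad had 86, 22 and 146 with STM2457 and 49, 11 and 84 with DMSO. Replicate 2 was the lowest of its arm for each of these 3 genes, which were chosen after their values were seen.

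In TSC, 0 of 67 members passed edgeR's test for STM2457 over DMSO, beside 0.966% of all tested genes; the unadjusted p was under 0.05 for 2, and DESeq2 called 0, beside 5.27% of tested genes. In EpiSC, 0 passed edgeR's test, beside 1.68% of all tested genes; the unadjusted p was under 0.05 for 5. DESeq2 called 1, Hist1h1c, beside 6.26% of tested genes, and EpiSC fitted alone called the same gene, beside 29.2%. Those genes, named after their values were seen, were Hist3h2a and Hist1h1e in TSC, and Hist1h2bk, Hist1h1c, Hist1h4h, Hist1h1e and Hist3h2a in EpiSC. All but Hist1h1c had at most 17 counts per library there, where a few reads move a fold change. Counts of unadjusted p-values, here and below, are given without the share of all tested genes, so nothing is read from them.

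Hist1h1c was the member whose treatment values in EpiSC rested on the most counts. It had 287 and 359 counts with STM2457 and 448 and 492 with DMSO in EpiSC, or 13.9 and 15.4 CPM with STM2457 and 22.3 and 23.2 CPM with DMSO. Its log2 fold change was -0.63 ± 0.18 (SE; edgeR adjusted p = 0.0928), which DESeq2 put at an adjusted p of 0.0319. In XEN it had 476, 324 and 446 CPM with STM2457 and 441, 310 and 406 CPM with DMSO, and in TSC 10.0 and 10.7 CPM with STM2457 and 10.2 and 9.89 CPM with DMSO. The arms were apart in EpiSC and overlapped in XEN and TSC. With 2 libraries per arm such separation was frequent: in EpiSC the STM2457 libraries all lay below the DMSO libraries for 15 of the 67 members and above for 10. Its EpiSC means were 14.7 ± 1.09 CPM with STM2457 and 22.7 ± 0.673 CPM with DMSO (SD, n = 2 each), beside histone sums of 47.5 ± 0.255 CPM with STM2457 and 55.2 ± 2.97 CPM with DMSO. The test of a difference between the 3 lines in the treatment effect called 0 of 67 members, beside 0.00543% of tested genes; the unadjusted p was under 0.05 for 4, DESeq2 called 0, and Hist1h1c had an adjusted p of 0.863.

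Genes that make and handle these mRNAs were read next. Of 20 genes of histone mRNA transcription and 3′ processing, all were tested; with STM2457, 3 rose and 1 fell in XEN, 1 rose and 0 fell in TSC, and 2 rose and 0 fell in EpiSC by edgeR's test, beside 4.15%, 0.966% and 1.68% of all tested genes called in these lines. DESeq2 called 3 higher and 2 lower in XEN, 3 and 1 in TSC and 4 and 2 in EpiSC, where it called 8.62%, 5.27% and 6.26% of all tested genes. The list medians were 0.02, 0.05 and 0.14 on the log2 scale, beside 0.00 for all tested genes in each line. With the replicate block, 5 rose and 2 fell in XEN, adding Cpsf2, Cpsf3 and Zfp473, beside 13.3% of all tested genes.

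Lsm10, which with Lsm11 takes the place of spliceosomal Sm proteins in the ring of the U7 particle, rose in all lines. It had 39.4, 33.6 and 38.5 CPM with STM2457 and 20.1, 13.6 and 15.98 CPM with DMSO in XEN, a log2 fold change of 1.17 ± 0.14 (SE; edgeR adjusted p = 0.000263). It had 31.9 and 30.8 CPM with STM2457 and 18.1 and 19.0 CPM with DMSO in TSC (0.75 ± 0.16, edgeR adjusted p = 0.0327), and 22.5 and 26.01 CPM with STM2457 and 12.6 and 10.7 CPM with DMSO in EpiSC (1.06 ± 0.16, edgeR adjusted p = 0.0051). The arms were apart in each line, though with only 2 libraries per arm in TSC and EpiSC. The TSC call was lost without any 1 of the 4 TSC libraries, with log2 fold changes of 0.72 to 0.79 and adjusted p from 0.306 to 0.331, and the EpiSC call was lost without EpiSC DMSO replicate 1 (0.0582), EpiSC DMSO replicate 2 (0.166) or EpiSC STM2457 replicate 2 (0.106), whereas the XEN call held in all 16 alternatives.

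Lsm11, the partner of Lsm10, rose in XEN, with 23.9, 24.6 and 22.5 CPM with STM2457 and 14.1, 17.5 and 14.6 CPM with DMSO (0.62 ± 0.12, edgeR adjusted p = 0.0088). Coil, the scaffold of Cajal bodies, where U7 particles gather, rose in XEN with 39.9, 40.2 and 36.8 CPM with STM2457 and 24.9, 23.3 and 24.4 CPM with DMSO (0.69 ± 0.10, edgeR adjusted p = 0.0011). Sympk, a scaffold of the cleavage complex, fell in XEN by 0.37 on the log2 scale (edgeR adjusted p = 0.0349). Zfp473, a zinc finger protein of the U7 complex, rose in EpiSC, with 60.8 and 57.4 CPM with STM2457 and 35.1 and 36.1 CPM with DMSO (0.73 ± 0.15, edgeR adjusted p = 0.0220). Slbp had log2 fold changes of -0.14 in XEN, -0.31 in TSC and -0.06 in EpiSC. Npat, the coactivator of histone gene transcription at histone locus bodies, had -0.05, 0.18 and 0.32 in the same lines, and neither gene passed edgeR's test. Besides Lsm10, DESeq2 called Lsm11, Coil and Slbp in TSC, where it called 5.27% of all tested genes. In EpiSC, besides Lsm10 and Zfp473, it called Lsm11, Npat, Srrt and Sympk, where it called 6.26%. The Lsm11 and Coil calls were therefore confined to XEN only by edgeR's main test. In the fit of XEN alone without a block, and under scaling to ribosomal protein genes, the Lsm11, Coil and Sympk calls in XEN were lost, with the signs kept. The Sympk call was also lost in 5 of 6 fits that left out a XEN library, all but that without XEN DMSO replicate 1, with adjusted p up to 0.0833, and the Zfp473 call without any 1 of the 4 EpiSC libraries, with adjusted p from 0.183 to 0.262; under the ribosomal scaling Zfp473 had an adjusted p of 0.114.

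**Figure D5:**
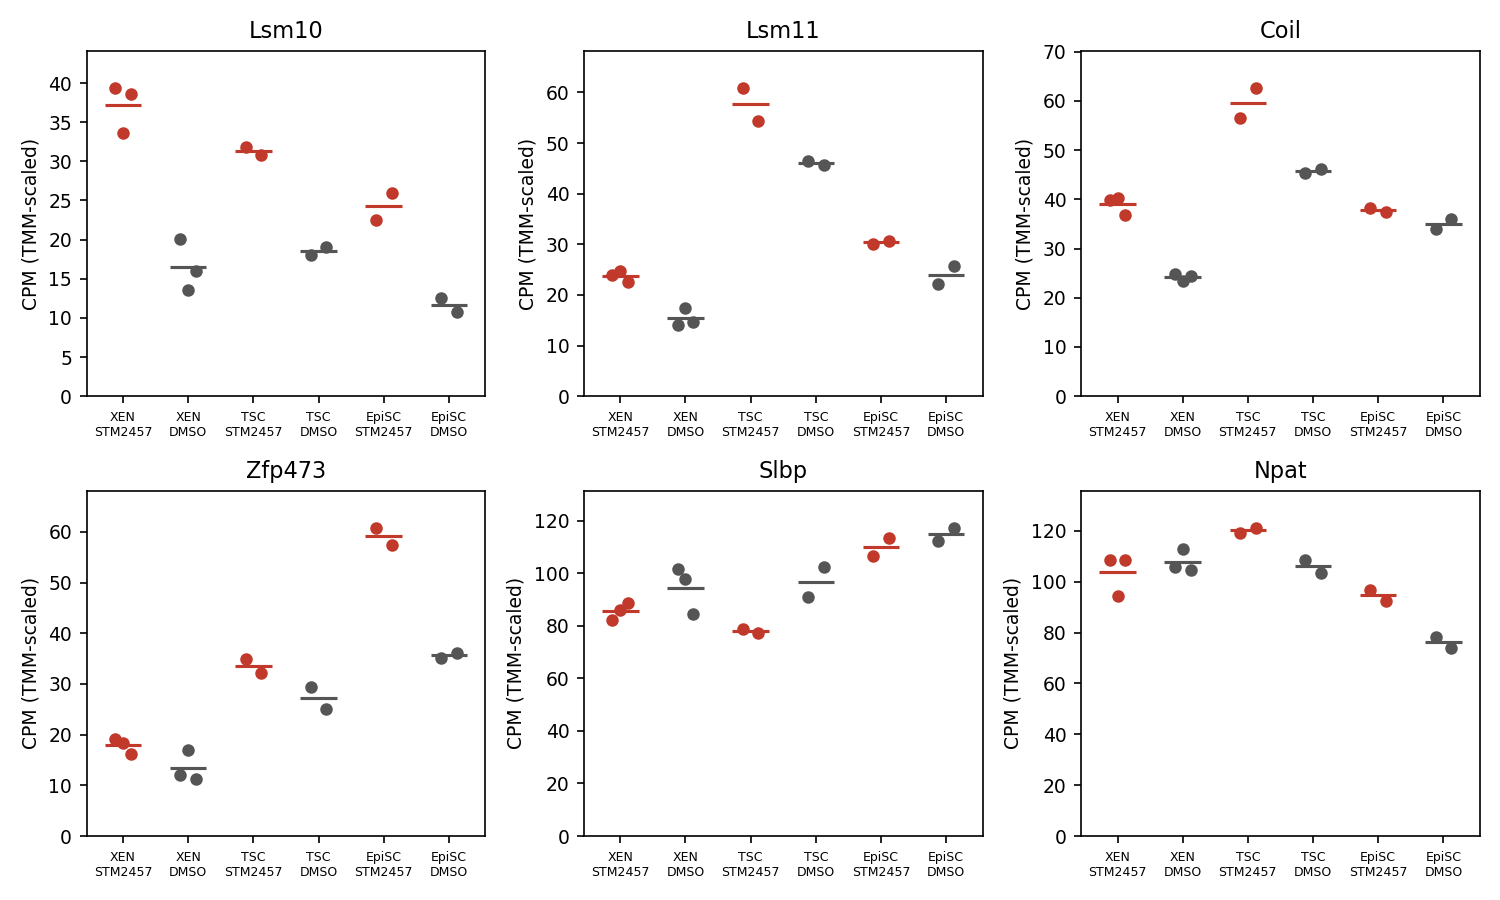
CPM of 6 genes of histone mRNA transcription and processing in each library (points) with group means (lines), STM2457 in red and DMSO in grey. Lsm10 lies higher with STM2457 than with DMSO in all 3 lines, while Slbp averages 85.6 CPM with STM2457 and 94.6 CPM with DMSO in XEN.

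In the remaining lists few genes passed the test, and under scaling to ribosomal protein genes none of those named here did. The DESeq2 calls in these lists stand beside 5.27% of all tested genes in TSC and 6.26% in EpiSC. Calls in XEN with the replicate block stand beside 13.3%, and edgeR's main calls beside 4.15% in XEN and 1.68% in EpiSC. Of 11 variant histone genes, H1fx rose in XEN, where it was scarce, at 3.41 ± 0.712 CPM with STM2457 and 1.65 ± 0.747 CPM with DMSO (SD, n = 3 each; 1.06 ± 0.27, edgeR adjusted p = 0.0374), and the others passed in no line; H2afj and H3f3b were called as well in XEN with the replicate block. H2afx had -0.13 in XEN, -0.05 in TSC and -0.74 in EpiSC (log2; edgeR adjusted p = 0.820, 1.00 and 0.153), and DESeq2 called H2afx and H3f3b lower in EpiSC. Of 18 histone chaperone genes, 3 rose in XEN and 0 fell, beside 4.15% of all tested genes called: Chaf1a and Chaf1b, subunits of the CAF-1 complex that deposits new H3 and H4 at replication forks, by 0.48 and 0.56, and Daxx, which deposits H3.3, by 0.47 on the log2 scale. By edgeR 0 of the 18 passed in TSC or EpiSC, with an unadjusted p under 0.05 for 5 in TSC and 3 in EpiSC, while DESeq2 called 4 in TSC (Daxx, Hat1, Rbbp4 and Ubn1) and 3 in EpiSC (Chaf1b, Daxx and Rbbp4). Of 28 genes of DNA replication and S phase, 1 rose in XEN, Tk1, the thymidine kinase of salvage synthesis, by 0.52, a share near that of all tested genes. By edgeR 0 of the 28 passed in TSC or EpiSC, with an unadjusted p under 0.05 for 4 in TSC and 3 in EpiSC, while DESeq2 called Ccna2 and Pcna in TSC and Cdc6, Pola1 and Tk1 in EpiSC. Of the 17 tested RNAs listed as lacking a poly(A) tail or ending otherwise, Neat1 fell by 0.90 in EpiSC on the log2 scale (edgeR adjusted p = 0.0391). In XEN and TSC 0 of the 17 passed by edgeR or by DESeq2. The unadjusted p of edgeR was under 0.05 for 0 in XEN and 1 in TSC. Adjusted p under the ribosomal scaling was 0.195 for H1fx, 0.291 for Chaf1a, 0.166 for Chaf1b, 0.319 for Daxx, 0.144 for Tk1 and 0.248 for Neat1. In XEN fitted alone it was 0.349 for H1fx, which had 0.0627 there with the replicate block, 0.173 for Chaf1a, 0.167 for Chaf1b, 0.231 for Daxx and 0.198 for Tk1. Among fits that left out a library, H1fx was lost without XEN DMSO replicate 1 or 3 or XEN STM2457 replicate 1 or 2, with adjusted p from 0.105 to 0.121. Daxx was lost without XEN STM2457 replicate 1 or 2 or XEN DMSO replicate 3, with adjusted p from 0.0604 to 0.0630, and Neat1 without any 1 of the 4 EpiSC libraries, with adjusted p from 0.151 to 0.358. The 7 fibroblast marker genes, listed because feeder cells can enter such cultures, summed to 41.7 to 43.6 CPM with STM2457 and 48.3 to 55.0 CPM with DMSO in EpiSC libraries, against 3.14 to 4.24 CPM and 3.15 to 3.42 CPM in TSC and at most 0.972 CPM in XEN, with Lum at 0 in all DMSO libraries; their part in the EpiSC values was not tested.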

How the data were processed

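Counts per gene for 14 libraries were deposited by the authors as whole numbers, with no normalization. Per the submitters' processing notes, FastQC, Trim Galore, STAR, featureCounts and build GRCm39 were used; versions, strand setting and treatment of multiply matching reads are not given in the sources used here. Names, classes and transcripts came from GENCODE M21 (GRCm38) by identifier, so no coordinates were used; 3281 of 55416 identifiers had no name.

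All libraries entered 1 edgeR 4.0.16 fit (R 4.3.3) of 6 groups: TMM scaling, filterByExpr (minimum count 10, minimum total 15), robust quasi-likelihood F tests, Benjamini-Hochberg adjustment over 18430 tested genes, threshold 0.05. All 67 members were tested. DESeq2 1.42.0, a block for replicate number, fits of single lines, other scalings, other filters and the omission of single libraries served as alternatives. The procedure was tested on simulated data. Intervals on ratios cover counting error only, and 3 counts served as the floor for a count of 0.

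Same-numbered XEN libraries deviated together over all tested genes (r = 0.220, 0.376 and 0.337), so numbers were taken to pair them; in TSC and EpiSC r was -0.0027 and -0.012. Members, gene lists and tests were chosen with earlier results of these data known. Named genes were those called (up to 10 per comparison and direction), the 10 highest per kb in XEN, class extremes in XEN, the 10 highest outside XEN and the extreme ratios; exceptions are stated.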

Additional observations from a re-analysis of the deposited data

How the results depend on the processing

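The counts of called members kept to within 1.5 times the main count under other scalings, filters and left-out libraries, except as follows. For STM2457 in XEN the main count of 0 became 3 with the replicate block and 1 (Hist1h3a) with XEN fitted alone with the replicate block. In EpiSC the main count of 0 became 1 (Hist1h1c) with DESeq2, 1 with EpiSC fitted alone, where 29.2% of tested genes were called, and 4 with the replicate block (13.2% of tested genes), although numbers were not shown to pair EpiSC libraries. In TSC the replicate block gave 0 (11.0% of tested genes). The difference between lines gave 1 (Hist1h1c) with the replicate block, against 0. The share of all tested genes called in that blocked comparison is not given here, and numbers were not shown to pair TSC or EpiSC libraries. Nothing is therefore read from this call. In EpiSC over TSC the count was 13, with 10 under the replicate block and 6 to 8 without 1 library. The log2 ratio of summed CPM was 7.48 (library totals alone) and 8.80 (scaled to ribosomal protein genes) for XEN over TSC, against 7.75, and 6.51 and 7.57 for XEN over EpiSC, against 6.81; the block does not enter these ratios. Leaving out the mitochondrially encoded genes raised the XEN share to 0.676%, against 0.571%. No called value of a gene changed sign, but the XEN treatment median over members, 0.08, ran from -0.05 to 0.25 without 1 XEN library. Medians of XEN over TSC and over EpiSC for the processing, variant, chaperone and S phase lists turned from negative to positive when scaled to ribosomal protein genes. For 69 values of single genes, 840 of 955 recomputed values stayed the same, 82 became weaker, 10 stronger and 23 moved; the cause was not tested. The few histone counts, not the library totals, limit TSC and EpiSC, where 5 and 11 members had 10 or more counts in every library.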
